A study of Mus musculus with 6 samples.

Results

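The annexins measured here are Anxa1, Anxa2, Anxa3, Anxa4, Anxa5, Anxa6, Anxa7 and Anxa11. They were chosen by gene symbol, and all 8 were found among the 24394 symbols in the libraries and among the 10393 genes that were tested. The cells were bone marrow-derived macrophages (BMMs), which are macrophages grown from marrow monocytes, here from C57BL/6 mice at postnatal day 28, in 7 days of culture with the growth factor M-CSF at 50 ng/ml. The BMMs of 3 libraries stayed without a stimulus (control), and in the other 3 libraries cartilage fragments had been added at 5 per macrophage for 24 h (stimulated). Both groups came from the same strain, age, growth factor and culture time, and no allele or drug was named for either. Marrow and cartilage came from the same mice, and the labels do not say whether the 3 libraries of a group stem from separate animals, so the p-values below measure the spread between these libraries, which may be technical.

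Annexins are cytosolic proteins that bind to acidic phospholipids of membranes when calcium rises. Each carries a conserved core of annexin repeats, which holds the calcium sites, and an N-terminal tail that differs between members and binds partners such as S100 proteins. In macrophages and neutrophils they are known for membrane repair, vesicle fusion, the coating of exposed phosphatidylserine, and, for annexin A1, the damping of inflammation through formyl peptide receptors.

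Expression was given in FPKM, fragments scaled to transcript length and library depth, which is a level per transcript length. The fragments behind these values were estimated from the coverage that Cufflinks lists, at 743000 to 776000 per control library and 699000 to 754000 per stimulated library. The study's methods state far more mapped reads per sample, and the reason for the difference could not be told from the values. Of the low values, 95.1% to 96.2% came within 0.1 of a whole fragment. Summed over 3 libraries, an annexin rested on an estimated 143 (Anxa11) to 1303 (Anxa1) fragments in the controls and on 152 to 1274 in the stimulated BMMs. On this estimate, counting alone gives a log2 ratio between groups a standard error (SE) of 0.057 for Anxa1 and 0.168 for Anxa11. Each library also holds transcripts that Cufflinks assembled without a gene name, 1453 to 1654 per library, with 15.8% to 19.96% of its FPKM. Where such a transcript shares its Cufflinks gene with 1 symbol, its FPKM was added to that symbol, and the values of the named reference transcripts are given beside the sum where both differ. Macrophage markers were present in every library (Adgre1, Csf1r, Cd68, Itgam, Lyz2, Fcgr1 and Mertk, 29402 to 39129 summed FPKM in controls and 29935 to 40198 in stimulated BMMs). Lyz2 held most of this sum, and Fcgr1 was the lowest, at 5.13 to 12.7 FPKM. Xist was present at 19.8 to 23.6 FPKM with 0 FPKM on 4 Y-linked genes, whereas the study's methods name male mice and the labels give no sex.

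The first sequence shown lies before the starts of Anxa4, because most Anxa4 signal was placed on transcripts that begin near the downstream of 2 starts. Its part in the Anxa4 values was not tested. RefSeq gives both starts on the minus strand of chromosome 6, at 86793584, where the listed reference transcript NM_013471 begins, and at 86775114. The 250 bases before each are printed from RefSeq on GRCm38 (mm10), 5′ to 3′ on the strand of the gene, with CpG dinucleotides in capitals.
Anxa4 first start, chr6:86793585-86793834: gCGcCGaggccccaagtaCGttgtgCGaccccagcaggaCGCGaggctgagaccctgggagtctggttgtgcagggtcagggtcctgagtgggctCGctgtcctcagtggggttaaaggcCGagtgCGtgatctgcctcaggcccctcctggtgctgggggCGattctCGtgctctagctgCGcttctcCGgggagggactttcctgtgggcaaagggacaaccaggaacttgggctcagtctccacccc
Anxa4 downstream start, chr6:86775115-86775364: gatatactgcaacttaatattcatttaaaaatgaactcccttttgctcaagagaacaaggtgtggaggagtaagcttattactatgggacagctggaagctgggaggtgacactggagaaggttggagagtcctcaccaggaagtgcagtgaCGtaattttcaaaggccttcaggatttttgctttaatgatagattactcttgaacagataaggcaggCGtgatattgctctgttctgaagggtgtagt

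The first window holds 13 CpG and 64.8% G and C, and the downstream window holds 2 CpG and 42% G and C. Of 32851 RefSeq windows of the same length, 68.5% have fewer CpG than the first and 18.8% have fewer than the downstream one. On both strands, neither window holds GAGGAA, a longer form of the PU.1 core (found in 23.3% of windows). Nor does either hold the AP-1 motif TGANTCA (6.75%), TATAAA (12.4%) or the GC box GGGCGG (32.7%). Both windows do hold the shorter core GGAA. The presence or absence of such letters says nothing about the factors.

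The other sequence shown is the short exon that separates the 2 Anxa6 transcripts in the libraries. It is exon 21 of 26 of NM_013472, 18 bases of coding sequence on the minus strand of chromosome 11 at chr11:54987051-54987068, and NM_001110211, with 25 exons, lacks it. Each is printed with 30 bases of exon on either side, from GENCODE transcripts on the same build, with the exon in capitals.
Anxa6 with the exon: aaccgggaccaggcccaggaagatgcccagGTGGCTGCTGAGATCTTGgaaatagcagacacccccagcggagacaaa
Anxa6 without the exon: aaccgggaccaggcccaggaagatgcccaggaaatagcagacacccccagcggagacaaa

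BMMs expressed the annexins over a 16.1-fold range of mean FPKM, from the highest to the lowest member. Anxa1 had the highest level, at 493 FPKM over the 6 libraries, and was followed by Anxa5 (298 FPKM), Anxa2 (228), Anxa4 (222), Anxa3 (141), Anxa6 (107), Anxa7 (52.1) and Anxa11 (30.6). Anxa2 and Anxa4 could not be ordered, since their ranges overlapped and Anxa2 was above Anxa4 in 3 of 6 libraries. Every other neighbouring pair in this order was separated, with the higher gene above the lower one across all 6 libraries. Anxa1 lay at the 98.5th percentile of tested genes by mean FPKM and Anxa11 at the 76.5th. Of the remaining annexins, Anxa10 and Anxa13 were listed at 0 FPKM in every library, Anxa8 stayed between 0 and 1.68 FPKM, and Anxa9 was listed at 6.56 FPKM in control 3 and at 0 in the other libraries.

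**Figure D1:**
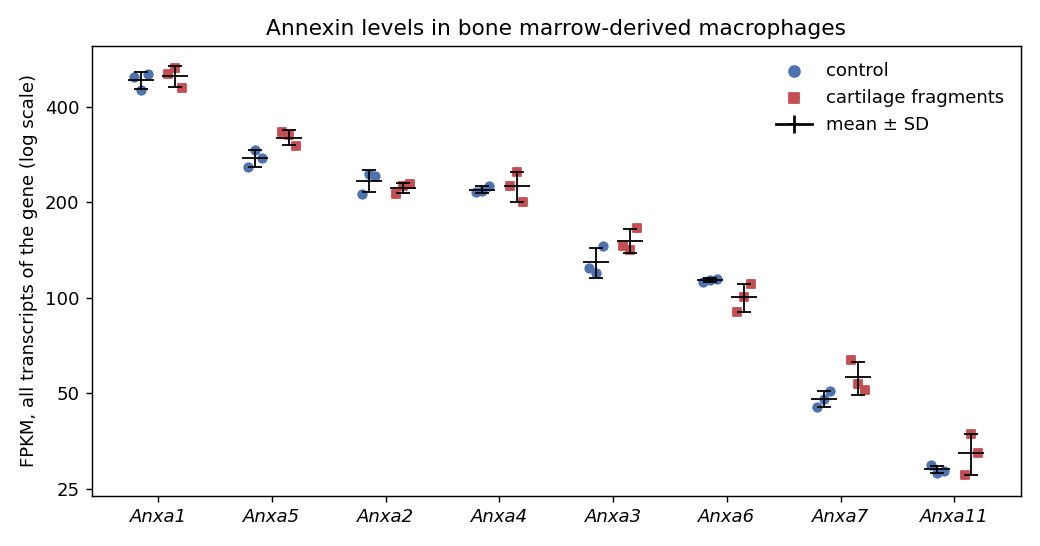
FPKM of each annexin, summed over all transcripts of the gene, on a log axis. Each point is 1 library (circles, control; squares, stimulated), and bars give the mean and SD of 3 libraries; Anxa1 sits at 453 to 532 FPKM and Anxa11 at 27.6 to 37.1 FPKM.

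The summed level of the family overlapped between the groups. It was 1496, 1520 and 1592 in the controls and 1609, 1666 and 1550 FPKM in the stimulated BMMs. The mean was 1536 ± 49.6 FPKM in controls and 1608 ± 58.3 FPKM in stimulated BMMs (SD, n = 3). Anxa1 made up 31.7% ± 1.76 of this sum in controls and 31.0% ± 1.27 in stimulated BMMs. Anxa5 made up 18.0% ± 1.15 and 19.9% ± 0.727, and Anxa6 made up 7.40% ± 0.159 and 6.27% ± 0.790.

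The comparison of stimulated with control BMMs asks which transcripts change when macrophages meet cartilage fragments. In FPKM, 0 of the 8 annexins passed an adjusted p of 0.05 (limma, Benjamini-Hochberg over all tested genes), where 0.366% of the 10393 tested genes did. At an unadjusted p under 0.05, 1 annexin was found (Anxa5), against 9.19% of tested genes. The groups did not overlap for 3 of 8 annexins, where 15.9% of tested genes had no overlap. Anxa5 and Anxa7 were above the controls (9.04% of tested genes) and Anxa6 below (6.89%). The median log2 fold change was 0.10 over the 8 annexins and 0.0037 over all tested genes, and 6 of 8 annexins had a positive value against 50.5% of tested genes. When fragments scaled to the depth of the library replaced FPKM, 1 of 8 annexins passed (Anxa3), where 2.44% of tested genes did, and the groups did not overlap for Anxa3, Anxa5 and Anxa6, 3 of 8 annexins against 16.4% of tested genes. In these bulk libraries, fewer cells of a type and less RNA per cell cannot be told apart.

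**Figure D2:**
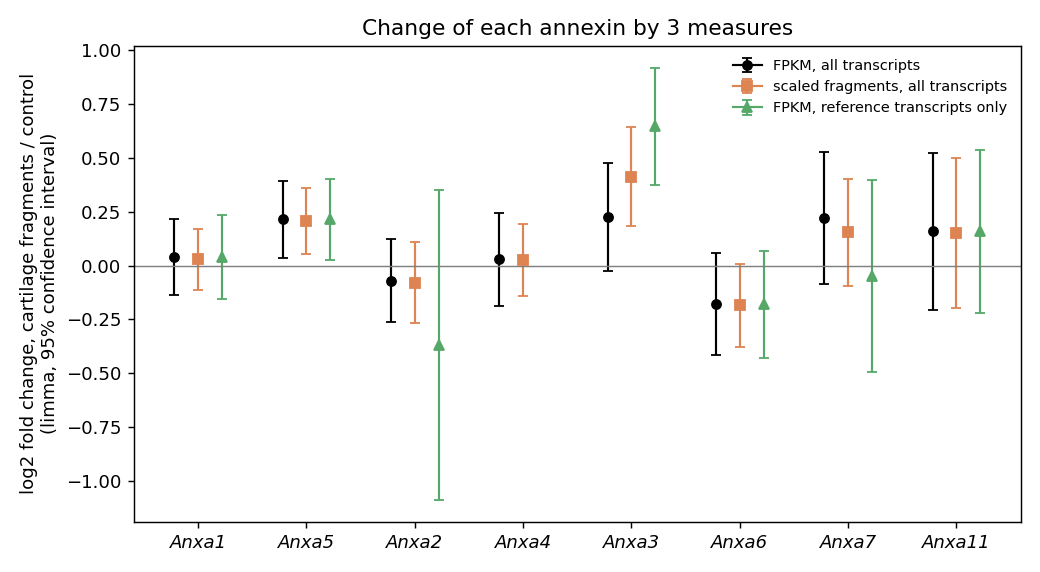
Log2 fold change of each annexin, stimulated over control, by 3 measures, with limma's 95% confidence intervals (3 libraries per group). Anxa3 moves from 0.23 (FPKM, all transcripts) to 0.41 (scaled fragments) and 0.65 (FPKM of the reference transcript), and Anxa7 changes sign. Anxa4 on reference transcripts (2.36, SE 4.07) is not drawn, since its transcript is listed at 0 in 3 libraries and the interval exceeds the axis.

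Anxa1 (NM_010730, chromosome 19, 20373434 to 20390671, minus strand) encodes the glucocorticoid-regulated annexin that acts on formyl peptide receptors. Its level was 498, 453 and 508 FPKM in the controls and 509, 532 and 459 FPKM in the stimulated BMMs. The groups overlapped, with stimulated 1 and 2 above the highest control and stimulated 3 within the range of the controls. Stimulation gave a log2 fold change of 0.04 (SE 0.077, 95% interval -0.14 to 0.22, adjusted p = 0.908 from limma).

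Both tested receptors of annexin A1 rose. Fpr1, which encodes the formyl peptide receptor of bacterial and mitochondrial peptides, had 45.3, 40.8 and 34.0 FPKM in controls and 148, 174 and 107 FPKM in stimulated BMMs, a rise of 1.82 on the log2 scale (SE 0.193, adjusted p = 0.00965 from limma). Fpr2, which encodes the receptor through which annexin A1 is best known to act, had 16.7, 20.9 and 14.9 FPKM in controls and 77.1, 77.0 and 50.2 FPKM in stimulated BMMs, a rise of 1.94 (SE 0.217, adjusted p = 0.0117 from limma). For both genes every stimulated library was above every control library, and Fpr3 was listed at 0 FPKM throughout. The study had selected Fpr1 and Fpr2 as changed genes from the same libraries, so their direction here is not independent evidence. Genes of arachidonate release and glucocorticoid response (Pla2g4a, Nr3c1, Tsc22d3, Fkbp5 and Dusp1) had 0 of 5 past the threshold, against 0.366% of all tested genes. Nr3c1, the glucocorticoid receptor, was above all controls (7.72 ± 0.880 and 9.89 ± 1.68 FPKM, adjusted p = 0.686 from limma), as was Fkbp5 (0.841 ± 0.915 and 2.28 ± 0.0850 FPKM, adjusted p = 0.627). Of all tested genes, 9.04% were above the controls in FPKM. In scaled fragments the groups overlapped for Nr3c1 (adjusted p = 0.535 from limma). Fkbp5 was at 0 FPKM in control 3 and rested on an estimated 25.2 fragments over the 6 libraries. Tsc22d3, a target of the glucocorticoid receptor, had 30.2 ± 1.13 FPKM in controls and 29.9 ± 4.403 FPKM in stimulated BMMs.

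Anxa2 (NM_007585, chromosome 9, 69453683 to 69491785, plus strand) encodes the annexin that forms a tetramer with S100a10 and binds plasminogen at the cell surface. Its level was 212, 247 and 243 FPKM in the controls and 213, 226 and 229 FPKM in the stimulated BMMs. All stimulated values lay within the range of the controls, with a log2 fold change of -0.07 (SE 0.084, adjusted p = 0.833 from limma). In stimulated 1, an assembled transcript of 1377 bases held 98.3 FPKM, and the reference transcript held 114 FPKM. On reference transcripts alone Anxa2 had a log2 fold change of -0.37 (SE 0.290, adjusted p = 0.797 from limma), with 114, 226 and 229 FPKM in the stimulated BMMs.

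The S100 partners of annexins were measured at levels of the same order as the annexins or above. S100a10, the partner of annexin A2, had 167 ± 23.0 FPKM in controls and 182 ± 34.7 FPKM in stimulated BMMs, and S100a11, the partner of annexin A1, had 692 ± 48.8 and 754 ± 43.8 FPKM. S100a4 (831 ± 152 and 759 ± 65.9 FPKM) and S100a6 (292 ± 32.9 and 257 ± 35.0 FPKM) completed the list, with 0 of 4 past the threshold (0.366% of all tested genes) and overlapping groups for all 4 (15.9% of all tested genes had none). Of the plasmin system, Plg was listed at 0 FPKM, and 0 of the 2 tested genes passed. Plaur, the receptor of urokinase, had 93.3 ± 1.71 FPKM in controls and 94.3 ± 25.4 FPKM in stimulated BMMs, and Plau, which encodes urokinase, had 13.9 ± 4.52 and 18.5 ± 2.14 FPKM.

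Anxa3 (NM_013470, chromosome 5, 96793385 to 96845968, plus strand) encodes an annexin of neutrophil and monocyte granule membranes. On its reference transcript it had 90.5, 92.4 and 107 FPKM in the controls and 146, 142 and 166 FPKM in the stimulated BMMs, which lay above all controls. Each control also held an assembled transcript at the gene, with 33.6, 27.1 and 37.8 FPKM, and no stimulated library did. With these transcripts included, the values were 124, 119 and 145 FPKM in controls and 146, 142 and 166 FPKM in stimulated BMMs, and the groups overlapped at control 3 and stimulated 2.

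The size and the call for Anxa3 depended on how these transcripts were counted. With FPKM it was 0.23 on the log2 scale with all transcripts (SE 0.109, 95% interval -0.03 to 0.48, adjusted p = 0.585 from limma) and 0.65 on the reference transcript alone (SE 0.111, adjusted p = 0.215). In scaled fragments, which do not divide by the length of the transcript, Anxa3 had 110, 107 and 130 in the controls and 148, 145 and 170 in the stimulated BMMs, without overlap. This was a rise of 0.41 on the log2 scale (SE 0.112, 95% interval 0.18 to 0.64, adjusted p = 0.0408 from limma), and of 33.0% in the mean. The call was lost with any library left out except control 3: the adjusted p from limma ranged from 0.0847 to 0.226 in the 5 fits without it and was 0.0158 without control 3. The log2 fold change stayed positive, at 0.34 to 0.50, in these 6 fits. Scaled fragments of the reference transcript alone gave 0.64 (adjusted p = 0.221 from limma).

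The assembled transcripts at Anxa3 covered different ends of the gene. In control 1 and control 2 they ran from the annotated start to 96825209 and 96825067, and in control 3 from 96828288 to the annotated end, with lengths of 801 to 953 bases and an estimated 12.1 to 20.6 fragments each. In control 1, a further assembled transcript with a gene ID of its own lay inside the gene (chromosome 5, 96826645 to 96827216) at 63.7 FPKM and an estimated 17.4 fragments, and it overlapped 0 annotated exons of Anxa3. With it added, the scaled fragments of control 1 became 127, the groups still did not overlap, and the adjusted p of Anxa3 was 0.118 (limma, log2 fold change 0.35). In FPKM it made control 1 the highest library, at 188 FPKM, and the change was 0.03 on the log2 scale (limma, adjusted p = 0.979). An assembled transcript in every control and in no stimulated library was found for 25 of the 10393 tested genes (0.241%), and the reverse for 16 (0.154%). Anxa3 is also among the changed genes that the study selected from these libraries.

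**Figure D3:**
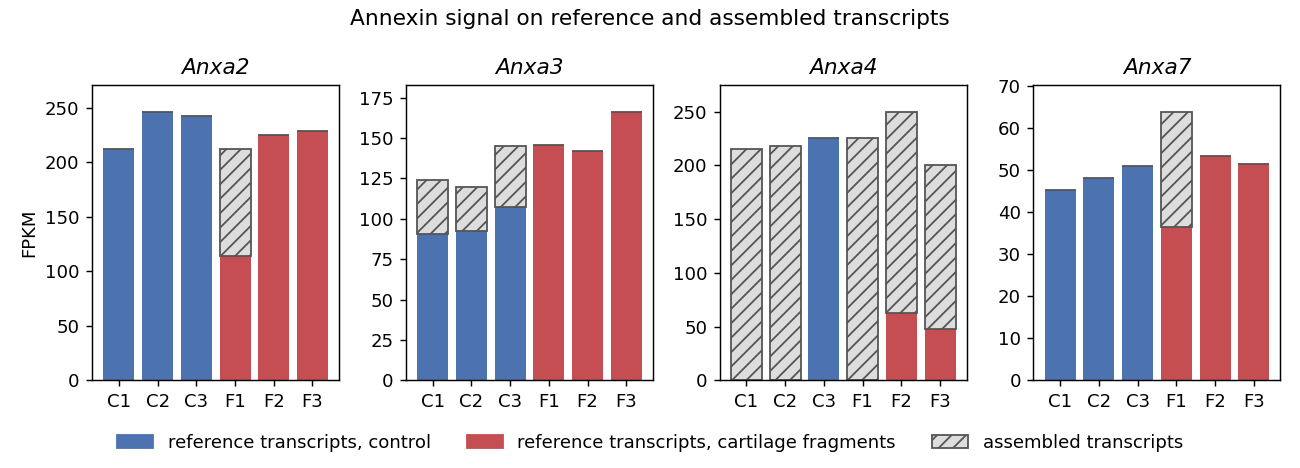
FPKM of Anxa2, Anxa3, Anxa4 and Anxa7 in each library (C1 to C3, control; F1 to F3, stimulated), with reference transcripts in solid colour and assembled transcripts hatched, stacked to the sum of the gene; each axis starts at 0. The hatched part appears in the 3 controls for Anxa3, in 5 of 6 libraries for Anxa4, and in F1 alone for Anxa2 and Anxa7.

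Anxa4 (chromosome 6, 86736840 to 86793584, minus strand) encodes an annexin of secretory and plasma membranes. Summed over all transcripts its level was 215, 218 and 226 FPKM in the controls and 226, 250 and 200 FPKM in the stimulated BMMs. The stimulated libraries reached both above and below the controls, with a log2 fold change of 0.03 (SE 0.094, adjusted p = 0.948 from limma). The reference transcript alone was listed at 0, 0 and 226 FPKM in the controls and at 0, 62.9 and 47.9 FPKM in the stimulated BMMs. On this transcript the group mean was 75.3 FPKM in controls and 37.0 FPKM in stimulated BMMs, while the fit on the log scale, which the libraries at 0 dominate, gave 2.36 (SE 4.07, adjusted p = 0.865 from limma), so it carries no direction.

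The Anxa4 transcripts differed in where they began. The assembled transcripts of control 1, control 2, stimulated 1 and stimulated 2, and the main one of stimulated 3, began at 86774988 to 86775013. These ends lie 101 to 126 bases inside the downstream start whose upstream window is printed above, and 18571 to 18596 bases from the start of NM_013471. They held 215, 218, 226, 187 and 84.0 FPKM in that order. In stimulated 3, 2 more assembled transcripts began at 86790935 (41.7 FPKM) and 86793062 (26.4 FPKM). In control 3 no assembled transcript of Anxa4 was listed, and the whole 226 FPKM was placed on NM_013471. The placement of signal thus differed from library to library within both groups, while the sum stayed within 200 to 250 FPKM. This placement depends on which transcripts Cufflinks assembled in a library, so it does not measure the use of the starts.

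Anxa5 (NM_009673, chromosome 3, 36448924 to 36475887, minus strand) encodes the annexin used to label exposed phosphatidylserine on dying cells. Its level was 259, 294 and 276 FPKM in the controls and 334, 326 and 301 FPKM in the stimulated BMMs. Every stimulated library was above every control, by 7.43 FPKM at the closest pair. That pair, control 2 and stimulated 3, rested on an estimated 336 and 316 fragments, where counting error is larger than this gap. The log2 fold change was 0.21 (SE 0.077, 95% interval 0.04 to 0.39, unadjusted p = 0.0236), and the adjusted p was 0.429 (limma). In scaled fragments the log2 fold change was also 0.21 (adjusted p = 0.202 from limma). Anxa5 carried no assembled transcript in any library. It was positive in all 27 alternative fits, at 0.16 to 0.26, and passed the threshold in 0 of them. The shared sign adds little, since leaving out a library cannot change it when the groups do not overlap. Fits on reference transcripts used the same values of Anxa5.

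Among phosphatidylserine scramblases, the proteins that expose the lipid that annexin A5 binds, 0 of 4 genes passed the threshold, against 0.366% of all tested genes. Ano6 had 38.6 ± 0.756 FPKM in controls and 33.9 ± 6.45 FPKM in stimulated BMMs, with overlapping groups. In scaled fragments it lay below all controls (adjusted p = 0.302 from limma), where 16.4% of tested genes had no overlap. Xkr8 had 1.76 ± 0.502 and 2.65 ± 0.220 FPKM and was above all controls in both measures (9.04% of tested genes in FPKM). Its adjusted p was 0.721 in FPKM (limma), and it rested on an estimated 39.3 fragments over the 6 libraries. Plscr1 and Plscr3 stayed between 5.37 and 11.4 FPKM.

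Anxa6 (chromosome 11, 54978962 to 55033471, minus strand) encodes the large annexin with a doubled core, which links membranes to actin and to cholesterol transport. Its level was 112, 114 and 115 FPKM in the controls and 90.5, 101 and 111 FPKM in the stimulated BMMs. Every stimulated library was below every control, by 1.25 FPKM at the closest pair. That pair, control 1 and stimulated 3, rested on an estimated 212 and 189 fragments, where counting error is larger than this gap. The log2 fold change was -0.18 (SE 0.103, 95% interval -0.42 to 0.06, adjusted p = 0.649 from limma), and in scaled fragments it was -0.18 (adjusted p = 0.474). The value was negative in all 27 alternative fits of the gene, from -0.26 to -0.11. Here too, leaving out a library could not change the sign, because the groups did not overlap. Anxa6 carried no assembled transcript, so fits on reference transcripts used the same values.

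The transcript with the printed 18-base exon made up 51.3%, 68.9% and 51.4% of Anxa6 FPKM in the controls and 53.6%, 52.6% and 79.6% in the stimulated BMMs. Control 2 and stimulated 3 stood apart from the other 4 libraries, and the groups overlapped. The mean share was 57.2% ± 10.2 in controls and 62.0% ± 15.3 in stimulated BMMs (SD, n = 3), with p = 0.50 in an exact two-sided permutation test, whose smallest possible value is 0.1. The split is Cufflinks' estimate for transcripts of 2643 and 2661 bases that share nearly all of their sequence.

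**Figure D4:**
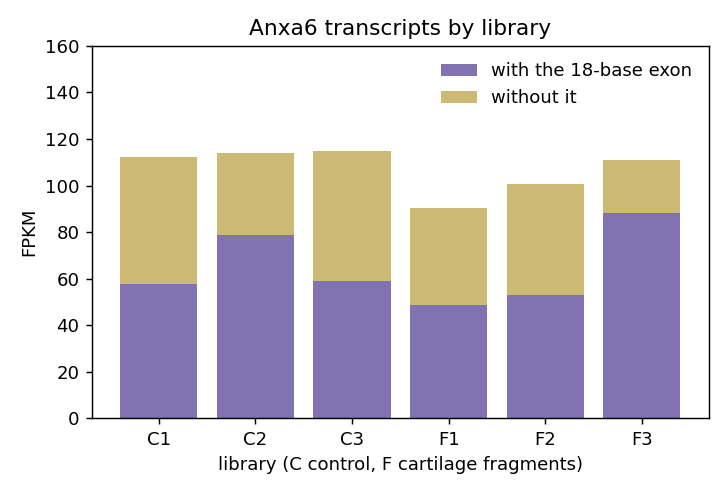
Anxa6 FPKM in each library, split into the transcript with the 18-base exon and the transcript without it, stacked from 0. The sum is lower in the stimulated libraries (90.5 to 111 FPKM) than in the controls (112 to 115 FPKM), and the share with the exon is highest in stimulated 3 (79.6%).

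Genes of membrane repair and calcium-dependent fusion were followed beside the annexins. In FPKM 1 of 11 tested genes passed upward and 0 downward, where 0.308% and 0.0577% of all tested genes did. Ehd1, which encodes a membrane-remodelling ATPase of endosomes, had 18.8, 20.2 and 17.8 FPKM in controls and 41.9, 54.5 and 39.3 FPKM in stimulated BMMs, without overlap. This was a rise of 1.24 on the log2 scale (SE 0.171, adjusted p = 0.0305 from limma), and Ehd1 is also on the study's list from these libraries. Ahnak, which encodes a giant scaffold that binds annexin A2 with S100a10, had 94.97, 89.9 and 85.3 FPKM in controls and 76.3, 76.5 and 74.5 FPKM in stimulated BMMs, all below the controls. Its log2 fold change was -0.25 in both measures, with an adjusted p of 0.496 in FPKM and of 0.000814 in scaled fragments (limma), and it rested on an estimated 6615 fragments over the 6 libraries. Capns1 (359 ± 8.002 and 400 ± 38.9 FPKM), the small subunit of calpains, Chmp4b (154 ± 10.99 and 153 ± 10.1 FPKM), which closes membrane wounds, and Myof (100.2 ± 1.09 and 103 ± 6.91 FPKM), a ferlin, did not pass. Over all 36 listed partners, 29 were tested, and 3 passed upward and 0 downward in FPKM.

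**Figure D5:**
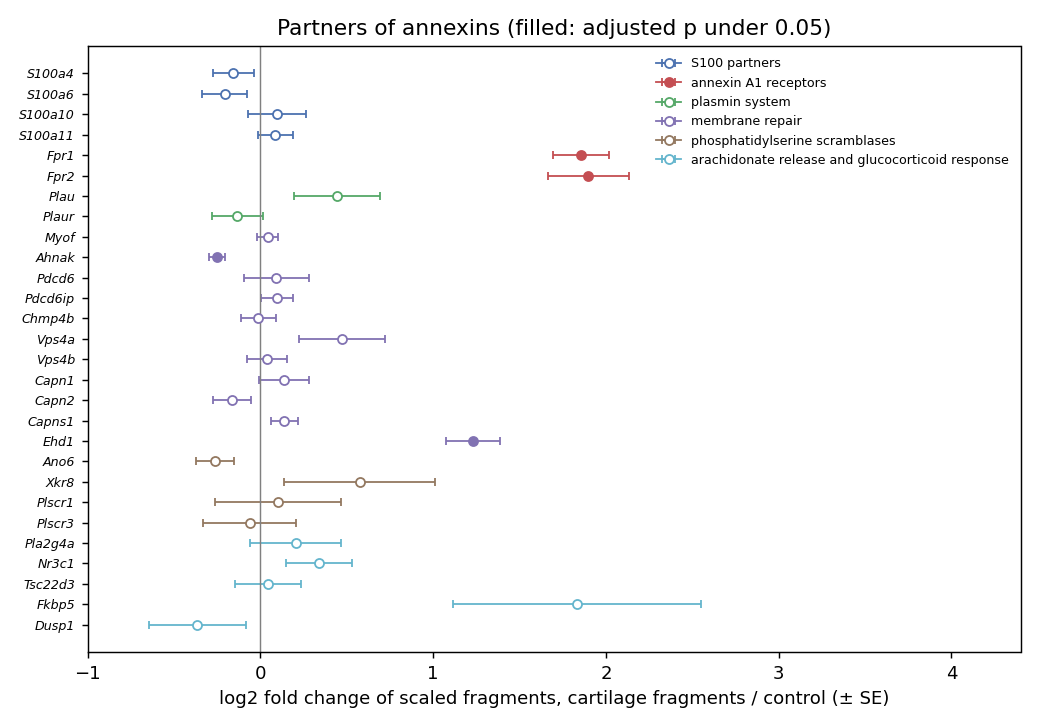
Log2 fold change of scaled fragments with its SE (limma, 3 libraries per group) for 28 of the 29 tested partners of annexins, coloured by list (Anxa9, detected in 1 library, is not drawn), with filled points at an adjusted p under 0.05. Fpr1, Fpr2 and Ehd1 are filled and lie above 1, Ahnak is filled at -0.25, Fkbp5 is open above 1 with a wide error, and the S100 partners lie between -0.21 and 0.10.

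Anxa7 (chromosome 14, 20455261 to 20480133, minus strand), which encodes a calcium-dependent GTP-binding annexin, had 45.2, 48.0 and 51.0 FPKM in the controls and 63.9, 53.4 and 51.4 FPKM in the stimulated BMMs. The stimulated libraries lay above the controls by 0.413 FPKM at the closest pair, with a log2 fold change of 0.22 (SE 0.134, adjusted p = 0.664 from limma). That pair, control 3 and stimulated 3, rested on an estimated 100 and 94.4 fragments, where counting error is larger than the gap. In stimulated 1 an assembled transcript of 2223 bases held 27.5 FPKM. Without it the log2 fold change was -0.05 in FPKM, with overlapping groups, and -0.06 in scaled fragments. With it, scaled fragments gave 0.16, also with overlapping groups. NM_009674, the longer of its 2 reference transcripts, was listed at 0, 11.9 and 9.35 FPKM in controls and at 0 in all stimulated libraries.

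Anxa11 (NM_013469, chromosome 14, 25842155 to 25886804, plus strand), which encodes an annexin with a long disordered tail, had 29.7, 28.1 and 28.5 FPKM in the controls and 27.6, 37.1 and 32.4 FPKM in the stimulated BMMs. Stimulated 1 lay below all controls and the other 2 lay above them. The log2 fold change was 0.16 (SE 0.158, adjusted p = 0.804 from limma). Of the 2295 windows of 100 bases in its transcript, 578 (25.2%) also occur in transcripts that GENCODE names Anxa11os, Gm2260 and Gm2274. How the authors' counting split reads between these is not given in the sources used here, so the level of Anxa11 is uncertain. The other 7 annexins shared 0 such windows with other genes.

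Across the 6 libraries, some annexins moved together and others apart. Pearson's r of log2(FPKM + 0.1) was 0.84 for Anxa5 with Anxa7, 0.81 for Anxa1 with Anxa4, -0.82 for Anxa5 with Anxa6 and -0.89 for Anxa6 with Anxa7. These are descriptions over 6 libraries that share depth and group, and Anxa7 includes its assembled transcript. Anxa5 had the smallest p of the annexins in FPKM with all transcripts (limma), whereas Anxa3 had it in scaled fragments. The genes outside the family with the pattern most like Anxa5 were Gbe1 (r 0.997), Rsad2 (0.992, at only 0.726 to 3.00 FPKM), Arhgdib (0.986), Ranbp1 (0.986) and Ccl9 (0.986), and 135 tested genes had an r over 0.9. For Anxa1, the annexin with the highest level, they were Cbr1 (0.983), Cd83 (0.981), Cog3 (0.978), Cops3 (0.974) and Tfcp2 (0.971), with 67 genes over 0.9.

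Of the markers of other cell types, 2 collagen genes of the fibroblast list lay below all controls, as did 6.89% of all tested genes in FPKM. Chondrocyte markers summed to 1.15 to 3.28 FPKM in controls and 0.985 to 1.59 FPKM in stimulated BMMs over 9 genes, with Matn1, Matn3, Col9a1, Hapln1 and Prg4 at 0 in every library. Neutrophil markers summed to 828 to 948 and 755 to 1127 FPKM, and 0 of 6 tested genes passed in FPKM, where 0.366% of all tested genes did. S100a8 (318 ± 66.2 and 377 ± 66.8 FPKM) and S100a9 (443 ± 22.4 and 391 ± 96.5 FPKM) held most of this sum. Mpo and Elane of the same list stayed between 0 and 1.88 FPKM, under the level for testing. Fibroblast markers summed to 155 to 169 FPKM in controls and 103 to 119 FPKM in stimulated BMMs, with Col1a1 (79.0 ± 7.28 and 47.8 ± 3.77 FPKM) and Col1a2 (78.1 ± 7.53 and 58.6 ± 3.51 FPKM) below the controls. Dcn (2.79 ± 0.962 and 3.52 ± 1.53 FPKM) and Col3a1 (3.14 ± 1.43 and 1.73 ± 0.161 FPKM) of the same list overlapped, and Lum and Pdgfra were under the level for testing. In scaled fragments, where 2.44% of all tested genes passed, Col1a1 and Col1a2 fell past the threshold. In FPKM they had an adjusted p of 0.0849 and 0.290 (limma). Of the macrophage markers, Adgre1 rose from 365 ± 13.4 to 549 ± 22.04 FPKM (log2 fold change 0.59, adjusted p = 0.00965 from limma). Adgre1, Col1a1 and Col1a2 are on the study's list from these libraries, so their direction here is not independent evidence. Itgam, too, was above all controls (354 ± 7.98 and 425 ± 18.5 FPKM), as were 9.04% of all tested genes in FPKM. It passed in scaled fragments (log2 fold change 0.26, adjusted p = 0.000177 from limma), though not in FPKM (adjusted p = 0.182). The part of these markers in the annexin values was not tested.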

How the data were processed

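RNA-seq libraries of BMMs with (n = 3) and without (n = 3) cartilage fragments were analysed. Per the labels the authors used TruSeq Stranded mRNA libraries, paired-end reads of 100 bp and mm10, and the submitters' processing notes name TopHat, Bowtie, Cufflinks and Cuffdiff, with versions not given in the sources used here. The deposited FPKM and the deposited coverage signal are Cufflinks values per transcript, and low values had not been removed. Whether the TMM named in the study's methods was applied could not be told from the values.

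FPKM were summed per gene symbol, with assembled transcripts of the same Cufflinks gene included (the chosen rule names symbol lines alone, given as reference transcripts). Genes were tested where their mean reached 1 FPKM, on log2(FPKM + 0.1), which understates changes of low genes, with limma 3.58.1 in R 4.3.3 (trend and robust moderation, two-sided), Benjamini-Hochberg over all tested genes and a threshold of 0.05. Scaled fragments are coverage times effective length over read length, divided by the library total and multiplied by the mean total, with 0.5 added before log2. The effective length is the length less 211 to 226 bases, set where most low values were whole. Values per library are the precision available, and intervals cover the spread between libraries. Tables and the exact test used Python 3.11.15, pandas 2.3.3, numpy 2.4.6 and scipy 1.17.1, and figures matplotlib 3.10.9.

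Starts in the files were 0-based, and 1 was added. Fits were tested on simulated data with changes larger than those of the annexins in FPKM, which does not show whether changes as small as these would be found. Fragments of 2 libraries differed by a mean chi-square of 1.50 to 1.67 per gene within groups and 2.12 to 2.72 between them, so no 2 libraries were the same file; this does not show whether they are technical repeats. The annexins and the lists were chosen with earlier results of these data known. Named were all 8 annexins, and from each list the genes past the threshold or up to 4 with the largest mean FPKM, with others of a list named after their values were seen, and for Anxa1 and Anxa5 the 5 most correlated genes. The authors' own comparison values were not used. Alternatives changed the pseudocount, filter, scaling, moderation, weights, block, status, transcripts and unit, or left out a library.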

Additional observations from a re-analysis of the deposited data

Results flagged for a closer look

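Signal on assembled transcripts of stimulated 1 was higher than in any control at 3 annexins. It was 98.3 FPKM at Anxa2 (0 in the controls), 226 FPKM at Anxa4 (up to 218 in the controls) and 27.5 FPKM at Anxa7 (0 in the controls). No test was run on these values of 1 library.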

How the results depend on the processing

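Of 221 alternative log2 fold changes of annexins, 208 kept their direction and their side of the threshold, 3 passed it and 10 changed sign, each of those 10 with an adjusted p of at least 0.914 (limma). Among the 208 are 2 fits of Anxa4 on reference transcripts (2.36, and 1.72 in scaled fragments) whose sign differs from that of the group means. Leaving out a library could not change the sign for Anxa5 or Anxa6, whose groups did not overlap. The sign changes were Anxa1 at -0.024 with quantile normalization, -0.012 without control 2 and -0.0075 without stimulated 2 (-0.018 and -0.017 in scaled fragments), Anxa4 at -0.0060 with equal totals and -0.048 without stimulated 2 (-0.047 in scaled fragments), and Anxa7 at -0.049 on reference transcripts (-0.062 in scaled fragments). With 1 library left out, Anxa1 ranged from -0.012 to 0.099, Anxa4 from -0.048 to 0.11, Anxa2 from -0.14 (control 1 out) to -0.03 (control 2 out), Anxa3 from 0.16 (stimulated 3 out) to 0.31 (control 3 out), Anxa6 from -0.25 (stimulated 3 out) to -0.11 (stimulated 1 out), Anxa7 from 0.13 (stimulated 1 out) to 0.28 and Anxa11 from 0.05 (stimulated 2 out) to 0.27 (stimulated 1 out). The counts of genes past the threshold moved more. From 32 higher, 6 lower and 0 annexins, they became 13 higher without trend and robust moderation, 15 higher on reference transcripts, and 164 higher, 90 lower and 1 annexin in scaled fragments. With 1 library left out, 8 to 27 genes were higher and 0 to 6 lower. Without stimulated 1 they were 8 and 0, without stimulated 2 14 and 3, without control 1 19 and 3, and without control 2 or control 3 3 were lower. The causes were not tested. The replicate numbers are shared between groups, and the deviations of same-numbered libraries correlated at -0.02, -0.0024 and 0.0099. This check had no known pair to compare with, so it cannot tell whether same-numbered libraries are paired. With the replicate number as a block, 17 genes were higher and 1 lower, and Anxa3 in scaled fragments kept its call (0.41, adjusted p = 0.0363). Anxa3 in scaled fragments passed at 0.50 without control 3. Scaled fragments of reference transcripts, leaving out libraries in that unit, the block in that unit and the separate assembled transcript were added after the values were seen. NM_009674 of Anxa7 gave no fold change, being listed at 0 in all stimulated libraries. If the estimate of 143 to 1303 fragments per group holds, it limits what can be seen.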
